A study of Zostera marina with 23 samples.

Results

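Male flowers and leaves of eelgrass, Zostera marina, were compared gene by gene in messenger RNA. The comparison took all 7 libraries titled male flower and all 6 titled vegetative, whose tissue label is leaf, 13 of the 23 libraries in the series. Shoots had been collected in winter in the Kiel Bight and planted in flow-through seawater tanks. Every library shared the treatment that induced flowering, in which the tanks went from 5 to 15 °C and the days from 12 to 16 hours of light. Libraries of root (n = 4), early female flower (n = 3) and late female flower (n = 2) came from the same experiment and served here only to show where the genes of interest were also expressed. The labels name no genotype, plant age or flower stage for the male flowers, nor do they say that replicates came from separate plants. The p-values therefore measure the spread between these libraries, which may be partly technical. The tissues are mixtures of cell types, so fewer cells of a type and less RNA per cell cannot be told apart.

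Eelgrass is a monocot that flowers and is pollinated under water. Its male and female flowers sit side by side on a flattened spadix inside a leafy sheath, and the female flowers of a spadix mature before the male ones. The anthers release thread-like pollen that lacks the sculptured outer wall, the exine, of most land plant pollen, and that drifts in the sea until it catches on a stigma. The leaf is a strap-shaped photosynthetic organ without stomata, with chloroplasts concentrated in the epidermis. The files pair the gene identifiers with no names, so the tissue labels were not checked against marker genes, no pathway was described, and at most 2 identifiers that were higher and 2 that were lower are named.

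Depth was 5696800 to 13133090 fragments in male flower, with a median of 9921624, and 6701348 to 13613117 in leaf. Values are given as scaled fragments, that is, fragments of a gene times a single factor of the library. The deposited columns summed to 10845975 to 25737103 in male flower and to 7893909 to 14406396 in leaf, so each direction is also given with columns scaled to equal sums. Across the 16436 genes tested, which are not independent replicates, Pearson's r of log2(value + 1) had a median of 0.895 over the 21 pairs of male libraries, 0.879 over the 15 pairs of leaf libraries and 0.429 over the 42 pairs of a male with a leaf library. The lowest r within a tissue was 0.718 in male flower and 0.663 in leaf, both above the highest r between the tissues, 0.486. The mean r of male replicate 5 with its own tissue was 0.788. For leaf replicate 1 the mean r was 0.732 within leaf but 0.838 with the 5 female flower libraries, where the remaining leaf libraries reached 0.563 to 0.695. Results that rest on these libraries are given with and without them.

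Most genes differed between male flower and leaf. A gene was called when its limma p, adjusted by Benjamini-Hochberg over all genes tested, was under 0.05 and its change at least 2-fold. Of the 16436 genes tested, which reached 10 scaled fragments in 2 or more of the 13 libraries, 9279 were called, 56.5%. In the deposited scaling 5225 (31.8%) were higher and 4054 (24.7%) were lower in male flower. With equal sums 57.2% were called and the balance turned, with 3780 (23.0%) higher and 5618 (34.2%) lower, and the median log2 change of all genes moved from 0.22 to -0.43. No gene called in one direction was called in the other. All 4054 genes lower in the deposited scaling were also lower with equal sums, whereas 72.3% of the 5225 higher genes were still called higher.

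For genes higher in male flower, the share of calls kept under other scalings differed with the size of the change. Among the 1383 genes called 2-fold to 4-fold higher in male flower, 228 (16.5%) were called higher under all 4 scalings tried, which were the deposited one, equal sums, quantile normalization and the median ratio of genes present in every library. Of the 1987 genes between 4-fold and 16-fold higher, 1518 (76.4%) were. Lower genes kept their calls at every size, with 1412 of 1423 (99.2%) at 2-fold to 4-fold and 1678 of 1681 (99.8%) at 4-fold to 16-fold. Every other scaling moved the median log2 change of all genes down from the deposited 0.22. It was 0.16 with the median ratio, -0.15 with quantile normalization and -0.43 with equal sums. Such a shift takes calls mainly from the higher genes, so the contrast does not show that lower genes are steadier. In the deposited scaling, at least 16-fold differences were called for 1855 genes higher in male flower (11.3% of those tested) and for 950 lower ones (5.78%). Of these, 1849 higher and all 950 lower genes were called in the same direction under all 4 scalings. That call requires a 2-fold change, so it does not show that the 16-fold size held. Changes of at least 256-fold were found for 469 genes higher and 46 lower. Under all 4 scalings together 3595 genes (21.9%) were higher and 4040 (24.6%) lower. That fewer genes were higher than lower by this count goes with the same shift and is no result about the tissues. The deposited scaling had the highest median of the 4, so requiring the others could remove mainly higher calls. In the deposited scaling more of the 16-fold changes were in the higher direction. They were not counted under the other scalings, and the same shift bears on that balance.

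**Figure D1:**
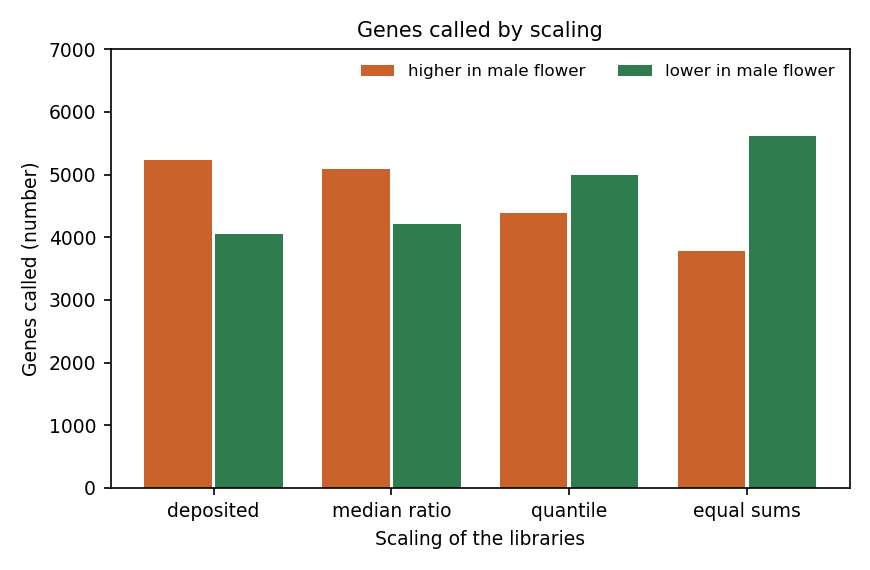
Number of genes called higher and lower in male flower than leaf (bars, vertical axis from 0) under 4 scalings of the 13 libraries (horizontal axis). The higher genes outnumber the lower ones in the deposited and median ratio scalings, at 5225 to 4054 and 5094 to 4203, and are outnumbered under quantile normalization, at 4389 to 4999, and equal sums, at 3780 to 5618.

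Whether the groups of a gene overlap depends on the size of the change, the spread between replicates and the scaling. All 7 male libraries lay above all 6 leaf libraries in 3196 genes (19.4%), and all 6 leaf libraries lay above all 7 male ones in 2497 (15.2%). Among the genes called, 3079 of the 5225 higher and 2388 of the 4054 lower ones had groups that did not overlap. With equal sums as well, 2113 of those higher and 2343 of those lower still had none. The calls were also kept when single libraries were left out: 4593 higher genes (87.9%) and 3521 lower genes (86.9%) were called in the same direction in each of the 13 fits that left out 1 library.

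**Figure D2:**
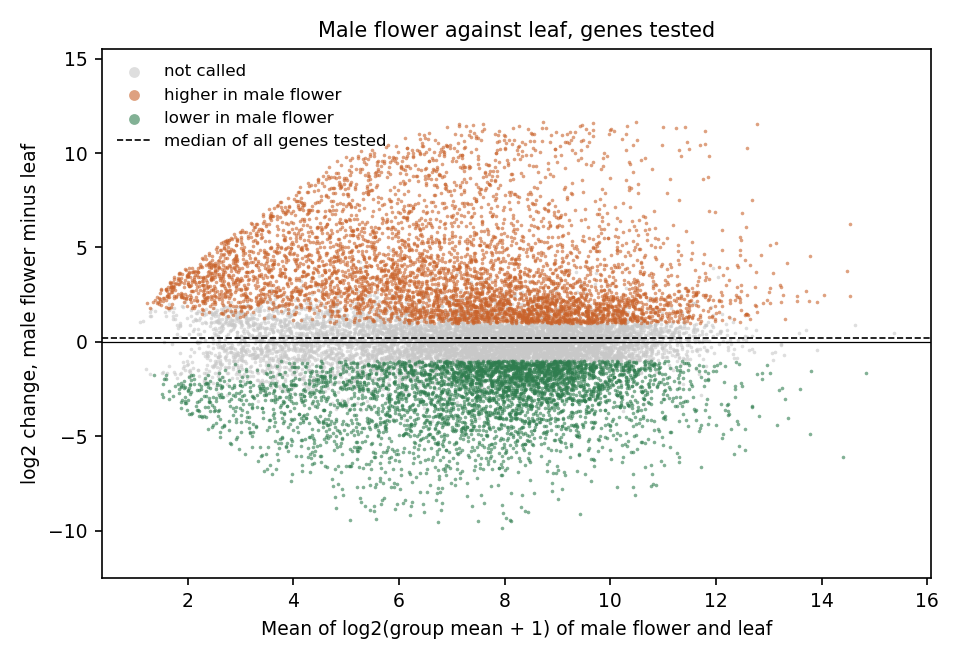
Log2 change of each of the 16436 genes tested, male flower minus leaf (vertical axis), against the mean of the log2 levels of both tissues (horizontal axis). The changes run from -9.87 to 11.65, and the dashed line marks the median of all genes, 0.22.

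The 2 genes most abundant per length among those at least 16-fold higher in male flower differed in their leaf levels. They were taken by the highest mean FPKM, fragments per length and library size, among called genes whose libraries did not overlap in either the deposited scaling or equal sums. Zosma58g00920 stood at 1527 scaled fragments in the lowest male library, replicate 5, at a median of 40094 and at 61325 in the highest. In leaf it ranged from 2.32 to 32.9 with a median of 4.53, a total of 78 fragments over the 6 libraries. The lowest male library was thus far above the highest leaf library. The log2 change was 11.50 (SE 0.828, adjusted p = 4.58e-08, limma, n = 7 and 6), and 10.89 with equal sums.

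The identifiers numbered immediately before Zosma58g00920 held ranks 3 and 4 by mean FPKM in male flower. They were looked at after their values had been seen. The first of these ranged from 612 to 54408 scaled fragments in male flower and from 4.53 to 19.9 in leaf, and the second from 1415 to 47433 and from 3.48 to 31.9. All 3 have almost the same effective length as a median over libraries, 0.0953 to 0.0959 of the median gene. All 3 were lowest in male replicate 5, where the first neighbour was at 612 against 20866 or more in the other 6 libraries. If these are near-identical copies, the counting could have divided fragments between them, so their separate values are uncertain. FPKM of so short a gene also depends on the effective length used, which differed between libraries. For Zosma58g00920, 41477 scaled fragments went with an FPKM of 29971 in male replicate 0. In male replicate 5, 1527 scaled fragments went with an FPKM of 2484.

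Zosma537g00040, the second by FPKM and 0.560 of the median effective length, was the more abundant of the named pair in fragments. It stood at 24559 scaled fragments in the lowest male library, again replicate 5, at a median of 186364 and at 383179 in the highest. Its leaf libraries ranged from 61.1 to 446 with a median of 121. Its mean leaf FPKM of 22.6 was above the median of 13.3 over all genes tested. Single leaf libraries ran from an FPKM of 7.83 to 57.9 with a median of 15.0, so some lay below 13.3. The groups did not overlap, and the log2 change was 10.27 (SE 0.641, adjusted p = 1.06e-08, limma), or 9.59 with equal sums. This gene alone took 0.226% to 1.66% of all fragments of a male library and at most 0.00397% of a leaf library. The identifiers beside it, counting 2 on each side, were called higher in male flower as well, with log2 changes from 2.90 to 6.23. They were found by following consecutive identifiers for as long as the call stayed the same, so their agreement is no result. For the genes named on the leaf side below, this found 0 beside Zosma148g00060 and 3 beside Zosma56g01110.

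On the leaf side, Zosma148g00060 held the highest mean FPKM of all genes in leaf. Its leaf libraries ran from 46136 scaled fragments in replicate 1 over a median of 228617 to 286330, and its male libraries from 970 over 1955 to 4839. The lowest leaf library was far above the highest male library. The gene took 0.584% to 2.81% of the fragments of a leaf library. The log2 change was -6.12 (SE 0.501, adjusted p = 1.63e-07, limma), and -6.80 with equal sums. Zosma56g01110 followed, at 21329 to 217312 in leaf with a median of 48053, and at 596 to 6207 in male flower with a median of 1659. Its leaf libraries spread widely but did not overlap with male flower. The log2 change was -4.89 (SE 0.634, adjusted p = 1.37e-05, limma), or -5.57 with equal sums. All 4 named genes kept their direction and their call under each of the 25 alternative settings.

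The named genes differed in where else they were found. Zosma58g00920 was at 3.42 to 11.9 scaled fragments in the 4 root libraries, and at 457 in early female replicate 0 against 8.67 to 37.0 in the other 4 female libraries. Zosma537g00040 showed the same single high library, at 1979 in early female replicate 0 against 79.6 to 204 in the other female libraries and 179 to 409 in root. The levels of these genes in the female flower thus rested largely on that library, whose part in the difference was not tested. Zosma148g00060 was at 999 to 7858 in root, at 2632 to 3506 in early and at 14483 to 25539 in late female flower, all below the lowest leaf library. Zosma56g01110 was nearer to leaf in root, at 19326 to 50363, where the groups overlapped, than in early female flower, at 4211 to 6518. In late female flower it was at 15874 and 22050, which overlapped with root and leaf. Between female flower, with early and late stages pooled although they did not overlap for this gene, and root, limma gave Zosma56g01110 a log2 difference of -1.60 (SE 0.357, adjusted p = 0.00685). The other 3 did not pass, with adjusted p of 0.202 for Zosma58g00920, 0.521 for Zosma537g00040 and 0.146 for Zosma148g00060 by the same limma test. For Zosma148g00060 the early and late stages did not overlap either. Its late female libraries lay above all root libraries, which the pooled test does not show.

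**Figure D3:**
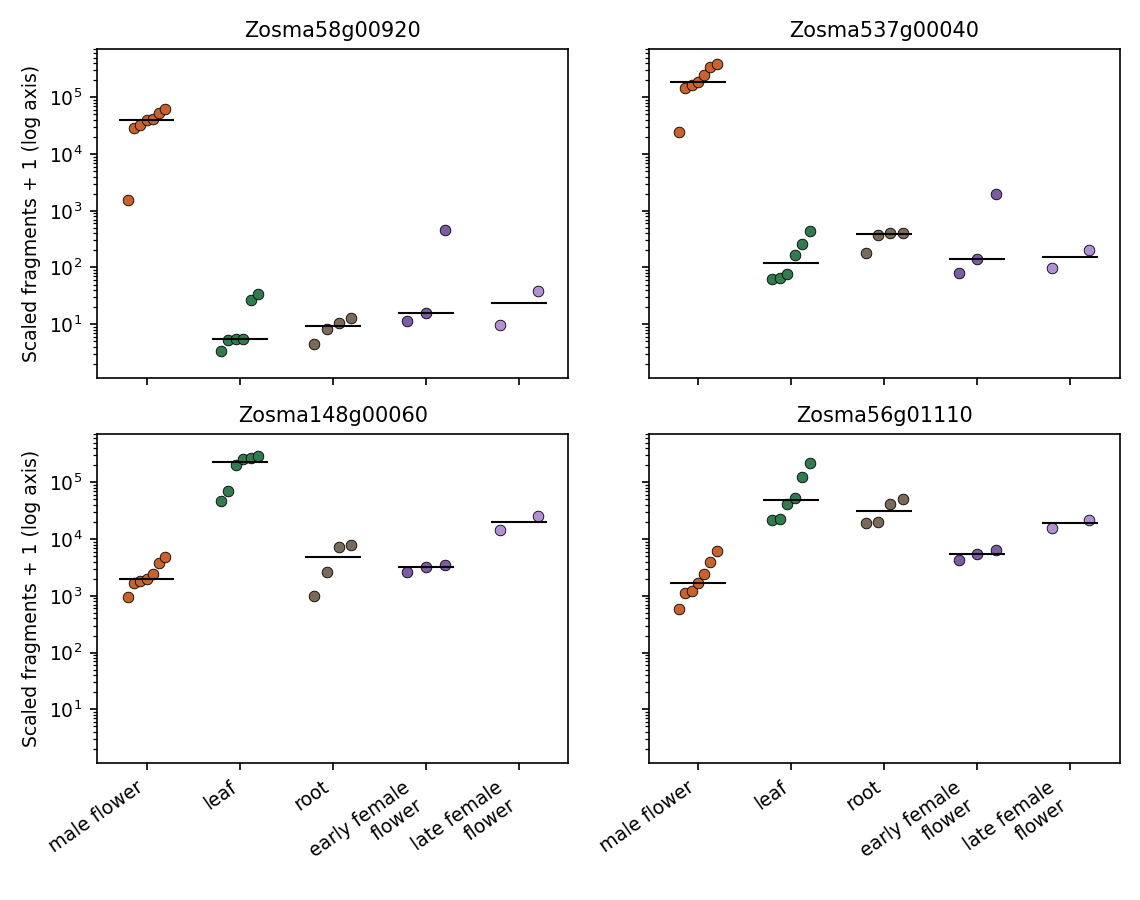
Scaled fragments + 1 of the 4 named genes on a log axis (vertical) in each library, by group (horizontal); points are libraries and lines are group medians. Zosma58g00920 and Zosma537g00040 are highest in male flower with 1 lower male library each, at 1527 and 24559, and Zosma148g00060 and Zosma56g01110 are higher in all leaf than in all male libraries.

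The transcriptome of male flower was concentrated in fewer genes than that of leaf. The number of genes that together held 50% of a library's fragments, counted from the most abundant down, was 235 to 363 in 6 male libraries and 774 in male replicate 5. It was 418 to 1193 in leaf, with a median of 804. The means were 360 ± 187 (SD, n = 7) and 799.7 ± 252 (n = 6), and the two-sided exact permutation p over the libraries was 0.00466, or 0.0163 after Benjamini-Hochberg adjustment over 7 such measures. Male replicate 5 lay inside the leaf range, and the leaf library with the fewest genes, replicate 2, lay nearest to the male ones. Without replicate 5 the groups did not overlap.

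The 100 most abundant genes of a library took 20.6% to 37.0% of its fragments in male flower (mean 32.8% ± 5.91, n = 7) and 17.3% to 31.5% in leaf (mean 22.7% ± 4.88, n = 6; exact permutation p = 0.0140, adjusted p = 0.0326). All male libraries but replicate 5 stood at 29.9% or more, and of the leaf libraries replicate 2 alone came as high. At the same time more genes were seen in male flower. Thinned by calculation to 5696800 fragments, a male library showed 16378 ± 412 genes with at least 1 fragment, and a leaf library 15523 ± 682 (exact permutation p = 0.0210, adjusted p = 0.0367). Leaf replicate 1, at 16661, lay above 6 of the 7 male libraries. With at least 5 fragments required the difference was 627 genes and did not pass (exact permutation p = 0.203). Without male replicate 5 alone the exact permutation p was 0.0390 with at least 1 fragment and 0.342 with at least 5. Leaf replicates 1 and 4 showed the most genes of the leaf libraries in both counts. Without these as well the exact permutation p was 0.00952 for both counts, the smallest that 6 against 4 libraries allow. Leaving out the leaf libraries with the most genes favours that outcome.

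**Figure D4:**
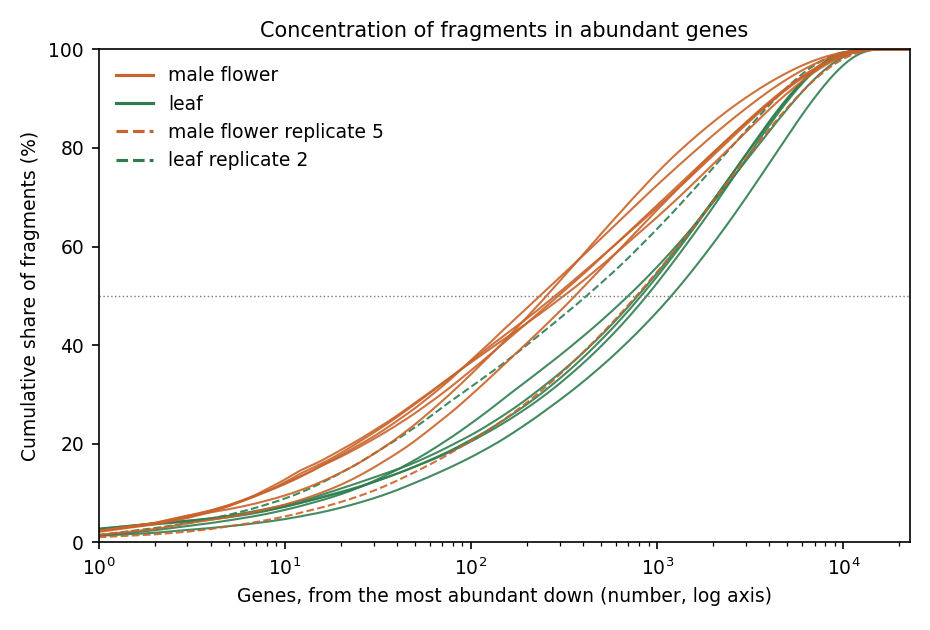
Cumulative share of a library's fragments (vertical axis, percent) over genes ranked from the most abundant down (horizontal log axis), 1 line per male flower or leaf library. The male lines cross 50% at 235 to 363 genes except for replicate 5 (dashed), at 774, while leaf crosses at 418 in replicate 2 (dashed) to 1193.

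The abundant genes of each tissue took little of the other. Of the 100 genes with the highest mean FPKM in male flower, 98 were called higher there, 86 of them at least 16-fold. That count is favoured by choosing genes abundant in the same libraries, and is given as a description. Together they took a median of 29.6% of a male library's fragments (10.5% in replicate 5 and up to 32.4%) and 0.745% to 1.30% of a leaf library's. In root they took 0.747% to 1.45% and in female flower at most 2.00%. The 100 genes highest in leaf took 12.4% to 25.3% of a leaf library and 1.11% to 1.54% of a male library, but 3.74% to 5.10% of a root and 4.28% to 6.17% of a female library. Of these, 85 were called lower in male flower, 54 at least 16-fold, and 1 was called higher, counts that the choice of genes favours in the same way. Of all genes tested, 31.8% were called higher in male flower, 11.3% at least 16-fold. Those called lower were 24.7%, with 5.78% at least 16-fold. The lists had 2 genes in common.

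All genes called higher in male flower took a large part of it. With gene sets made again without the library measured, they held 73.0% to 79.6% of the fragments in 6 male libraries and 59.1% in male replicate 5, against 8.39% to 12.3% in 5 leaf libraries and 19.0% in leaf replicate 1. The genes called lower held 38.2% (replicate 1) to 63.6% of the fragments in leaf and 3.32% to 9.04% in male flower, where replicate 5 was again at the end nearest to leaf. Since the sets were chosen for this contrast, the direction is no finding. In libraries outside the contrast, the higher genes held 23.4% to 24.6% of the fragments in early female flower, 22.1% and 23.5% in the 2 late female libraries and 14.4% to 22.3% in root. The female libraries lay between leaf and male flower, a place that the choice of the genes favours for any other tissue. The lower genes held 24.6% to 30.6% in the female libraries and 26.1% to 42.3% in root, where replicate 2 had the highest share, inside the leaf range. For the higher genes root replicate 2, at 14.4%, lay below leaf replicate 1.

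**Figure D5:**
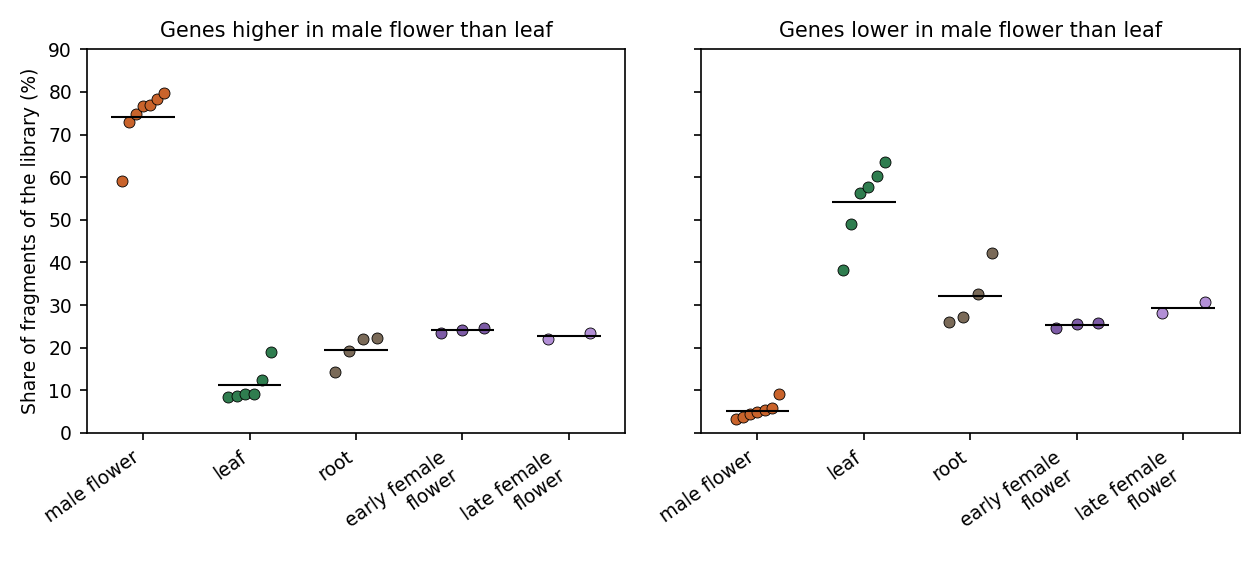
Share of each library's fragments (vertical axis, percent) in genes called higher (left) or lower (right) in male flower than leaf, by group; points are libraries, lines are group means, and for male flower and leaf the sets were made without the library shown. The higher genes take 59.1% to 79.6% in male flower and at most 24.6% in any other tissue.

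Some genes were seen in only 1 of the tissues at this depth. A total of 68 genes had no counted fragment in any leaf library and at least 10 scaled fragments in each of the 7 male libraries, and 13 of these had at least 100 in each. Of the 68, 35 had 3 or more fragments in at least 1 female library and 14 in at least 1 root library, while 18 summed to fewer than 3 fragments over all root and female libraries. In the opposite direction 10 genes had no fragment in any male library and at least 10 in each leaf library, and none had 100 in each. Detection differed between the tissues, since the floor of 3 fragments stood for 4.35 to 13.6 scaled fragments in a male library and for 1.74 to 4.25 in a leaf library. Floors cover counting error only.

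Genes higher in male flower than leaf were also followed in female flower against root, libraries the contrast did not use. In a limma fit of the root and female libraries alone, 16145 genes were tested, 21.7% were called higher in female flower and 19.6% higher in root. Of the 5225 genes higher in male flower, 4422 were tested there. Among them 1138 (25.7%) were called higher in female flower and 526 (11.9%) higher in root, with a median log2 difference of 0.46 against 0.06 for all genes. Of the 1855 genes at least 16-fold higher in male flower, 1335 were tested, with 441 (33.0%) higher in female flower, 177 (13.3%) higher in root and a median of 1.19. Of the 950 genes at least 16-fold lower, 868 were tested. Among these, 277 (31.9%) were higher in female flower and 344 (39.6%) higher in root, with a median of -0.56. The share called higher in female flower was thus similar in both 16-fold sets. The 4054 genes lower in male flower, 3887 of them tested, had a median of -0.27, with 822 (21.1%) higher in female flower and 1132 (29.1%) higher in root. With equal sums the shares of the higher genes were 33.1% and 9.86%, beside 26.8% and 16.9% of all genes tested. The contrasts share no library. Of the genes tested in both contrasts, 21.5% were called higher in female flower and 17.8% higher in root. Beside these, the share of all higher genes called in female flower, 25.7%, was a little above. That of the 16-fold higher genes, 33.0%, was further above. The shares called in root, 11.9% and 13.3%, were below. None of these differences was tested. Without root replicate 2 and early female replicate 0, the shares of the higher genes were 22.3% and 16.7% against a background of 20.6% and 22.2%, and 728 of the higher genes were called in root in place of 526. Root replicate 2 held 14.4% of its fragments in the genes higher in male flower, against 19.1% to 22.3% in the other roots.

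Male flower was the tissue of the highest mean level for 4149 of the 5225 higher genes (79.4%), female flower for 771 and root for 305. With equal sums these numbers were 3162, 1587 and 473, and leaf was highest for the remaining 3. Over all genes tested, male flower was highest for 35.3% in the deposited scaling and 21.5% with equal sums. For the 4054 lower genes the highest mean level was in leaf for 2702 (66.7%), in root for 835 and in female flower for 517. With equal sums leaf was highest for 2195 of them. Male flower had the lowest mean level of the 4 tissues for 2709 of them (66.8%), and for 3396 (83.8%) with equal sums. Over all genes tested it was lowest for 29.7% and 48.7%. Since male flower and leaf chose these genes, the counts describe the other tissues' place relative to them.

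Among the male libraries, replicate 5 differed in both directions. As shares of a library's fragments, and with sets made without it, replicate 5 lay outside the range of the other 6 male libraries for 69.4% of the 5183 genes higher in male flower. It lay above that range for 1929 of them and below it for 1667. Male replicate 1, the shallowest library, was outside the range of the rest for 51.5%, mostly below, and the other 5 male libraries for 10.3% to 18.0%. Of the genes lower in male flower, replicate 5 was above the other male libraries for 50.2% and outside their range for 56.8%. Male replicate 1 was below the others for 47.2% and outside for 51.8%, with the set made without it. In leaf, replicate 1 lay above the other 5 leaf libraries for 61.5% of the genes higher in male flower and below them for 41.3% of the genes lower in male flower.

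The spread within each tissue is given with and without the libraries of lowest mean correlation with their own tissue. The median SD of log2(value + 1) per gene was 0.726 in male flower and 0.788 in leaf. Without male replicate 5 it was 0.532, and without leaf replicates 1 and 4 it was 0.465, a fall that leaving out such libraries favours. Without all 3 libraries, 10155 genes were called, 5940 higher and 4215 lower in male flower, and 4969 of the 5225 higher and 3747 of the 4054 lower genes of the full comparison were among them.

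Calls were also set against the order of the identifiers. Over 13273 pairs of tested genes whose identifiers follow each other, the second was higher in male flower in 31.3% of all pairs, in 35.7% of those whose first was higher and in 27.6% of those whose first was lower. The second was lower in 24.9% of all pairs and in 29.3% of those whose first was lower. These are descriptions, since neighbours may be near-identical copies that share fragments. Runs of at least 4 consecutive genes called higher numbered 87 and held 380 genes, and runs called lower numbered 46 and held 195. Under all 4 scalings, 24 runs of higher genes and 46 of lower genes remained, where the downward shift of the median change again falls mainly on higher calls.

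The longest run held 10 consecutive genes higher in male flower, all with the prefix Zosma194g and singled out after their values were seen. Their log2 changes ranged from 3.98 to 9.24 with a median of 7.78, and all 10 were called higher under all 4 scalings. Summed over the run, the 7 male libraries held 2431 to 4441 scaled fragments with a median of 3002, while the 6 leaf libraries held 0 to 4.99. The run was rarely seen outside male flower, with 12152 fragments counted in the male libraries, 7 in leaf, 3 in root and 81 in female flower, of which 70 were in early female replicate 0. Male replicate 5, at the median for the sum, was above all other male libraries for 3 members and below all of them for the other 7.

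Effective length was not used in the comparison. It was taken from the ratio of the deposited values to FPKM, as a median over libraries, and set to 1 for the median gene tested. The median was 0.948 for the higher, 1.02 for the lower and 1.03 for the genes not called, with a length for 98.2% of all genes tested. Of the 4034 shortest genes 37.2% were higher in male flower and 22.2% lower, and of the 4034 longest 28.6% and 25.3%. With equal sums 28.4% of the shortest were higher, where 23.0% of all genes were, and 30.1% of the shortest and 36.7% of the longest were lower. Under all 4 scalings 26.5% of the shortest and 19.6% of the longest were higher. The part of length in the calls was not tested.

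Identifiers with the prefixes ZosmaC and ZosmaM were also counted apart. The files do not say what the prefixes stand for. Of 92 ZosmaC identifiers 28 passed the filter, and 14 were called lower and 2 higher in male flower, where 24.7% and 31.8% of all genes were. Without male replicate 5 and leaf replicates 1 and 4, 9 were lower and 1 higher, and with equal sums 16 were lower. Together all ZosmaC identifiers took 0.00271% to 0.0120% of the fragments in 6 male libraries and 0.0937% in replicate 5, against 0.0551% to 0.318% in leaf (exact permutation p = 0.00350 over n = 7 and 6 libraries, adjusted p = 0.0163). Of 104 ZosmaM identifiers 21 passed, and 5 were called higher and 1 lower. With equal sums 0 were higher and 2 lower, and without the 3 libraries 6 were higher and 2 lower. The median log2 change of the 21 was 1.26 as deposited and 0.86 with equal sums, where the medians of all genes were 0.22 and -0.43. ZosmaM identifiers took 0.00586% to 0.0384% in 6 male libraries and 0.206% in replicate 5, a range that overlapped with leaf, at 0.00791% to 0.0433% (exact permutation p = 0.330).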

How the data were processed

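Per the labels' protocols, oligo(dT) beads were used to isolate messenger RNA, which was read from both ends for 100 bases. TopHat2 2.0.12, Cuffdiff 2.2.1 and Cuffnorm 2.2.1 appear, with no role, per the submitters' processing notes. Build, annotation and strand were not given in the sources used here. What the authors deposited under the name of counts is a scaled signal: each library has a smallest step, and 99.8% of its non-zero values up to 100 steps were whole numbers of steps with a tolerance of 0.01, which gave the fragments and the depth. Residues near 0 remained, so no count-based test was run. The FPKM that the authors deposited served to rank genes, for length and as an alternative.

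Groups came from the titles, and 1 library with conflicting labels entered no comparison. Genes that reached 10 in 2 or more of the 13 libraries entered a limma fit of log2(value + 1) for both groups (limma 3.58.1, R 4.3.3, lmFit, eBayes with trend and robust settings). Folds on this scale understate changes of low genes. Single measures per library were tested by exact two-sided permutation of the 13 libraries. The named genes are, per direction, the 2 with the highest mean FPKM in the higher group among called genes of at least 16-fold change whose libraries do not overlap as deposited or with equal sums. The comparison and the lists were chosen with earlier results of these data known. The steps were tested on simulated data. No replicates of male flower or of leaf agreed within sampling noise (smallest chi-square per degree of freedom 18.8). Other software was scipy 1.17.1 with numpy 2.4.6, matplotlib 3.10.9 for plots and pandas 2.3.3, under Python 3.11.15. Counting floors were 3 fragments per library.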

Additional observations from a re-analysis of the deposited data

Results flagged for a closer look

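Male replicate 5 stood far from the other 6 male libraries in 4 measures. It needed 774 genes to reach 50% of its fragments, where the others needed 235 to 363. Identifiers with the prefix ZosmaC took 0.0937% of its fragments against 0.00271% to 0.0120%, and those with the prefix ZosmaM took 0.206% against 0.00586% to 0.0384%. Genes higher in male flower, chosen without it, took 59.1% of its fragments against 73.0% to 79.6% in the other male libraries. Leaf replicate 1 held 19.0% of its fragments in genes higher in male flower, against 8.39% to 12.3% in the other leaf libraries. In 28 groups of values examined in this way 5 stood out, 4 of them through male replicate 5. Chance gives about 1 in 20 for a single group. The groups are repeated measures of the same libraries and not independent, so the count cannot be judged against that rate.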

How the results depend on the processing

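The number of genes called, 9279, lay between 8394 (filter at 50) and 10867 (library weights) over the 25 alternatives, and no gene called in one direction was called in the other under any of them. The number higher in male flower ranged from 3780 (equal sums) to 6425 (library weights) and the number lower from 3768 (replicate block) to 5618 (equal sums). The differences in the share of the 100 most abundant genes and in the number of genes holding 50% of the fragments kept their side of the threshold in all settings tried. The difference in genes seen at equal depth went from 855 to 627 when at least 5 fragments were required, and no longer passed (exact permutation p = 0.203). With the replicate number as a block, 8625 genes were called, 4857 higher and 3768 lower. Same-numbered male and leaf libraries did not deviate together (r from -0.10 to 0.14 over 6 pairs, best with its own number in 1), so the number does not pair them. For female flower against root, the block lowered the genes higher in both male flower and female flower from 1138 to 644, and those higher in root from 526 to 444. These were 14.6% and 10.0% of the genes tested, where the block called 15.1% and 16.3% of all genes. Leaving out 1 library gave 8871 to 9748 genes called. A count-based test was not run. Depth limits what is said of genes of few fragments, and libraries with larger factors have higher floors.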
